A study of Sus scrofa with 28 samples.

Results

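Troponin of fast muscle fibres is built from 3 subunits, and their genes are 3 of the 211 named on the array, with 48 of its 4608 probes. These are every probe whose only gene symbol in the platform annotation is TNNC2 (29 probes), TNNI2 (7 probes) or TNNT3 (12 probes). Probes were taken by name alone, with no measured value in the rule, but the genes were chosen with earlier results of these data known. Each of the 48 probes is a different cDNA clone, and all 48 gave a value in every pig.

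Troponin is the calcium switch of the thin filament. The C subunit, encoded for fast fibres by TNNC2, binds the calcium released at each nerve impulse. The I subunit, encoded by TNNI2, holds actin and myosin apart at rest, and the T subunit, encoded by TNNT3, ties the complex to tropomyosin. Slow fibres use other genes for the same subunits, so the fast genes are widely read as markers of fast-twitch muscle such as most of a pig's ham. TNNI2 and TNNT3 lie close together in the pig genome, with 2 protein-coding genes listed between them in the RefSeq table of Sscrofa11.1.

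RNA came from the semimembranosus, a large muscle of the ham, of 14 pigs. In 7 of them (normal) the meat had a low L*, the lightness reading of a colour meter, and in 7 (destructured) L* was high and the meat had the pale, structureless defect that spoils cooked ham. No treatment, genotype, breed, sex or age is given in the sources used here. The pigs were sorted by their meat, so the comparison is between animals as found and not between a treatment and a control. The pig numbers in the labels are all different but for normal replicate 2 and destructured replicate 3, which have 1 number, and nothing says whether that is 1 animal. Radioactively labelled cDNA of each pig was hybridised to 1 nylon array that holds every probe in a left and a right part. Values are log2 spot intensities, quantile normalized over the 28 columns and averaged over the parts of a pig. A spot's level depends also on the DNA in the spot and on the clone, so levels of different probes are not set against each other.

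Several features of the arrays bear on every value below. The right part of normal replicate 3 stood apart: over all probes its correlation with the left part was 0.373, against 0.869 to 0.963 in the other pigs, and over the 48 fast troponin probes it was 0.208, against 0.813 to 0.974. Results are therefore given with that part and with it left out. Fold changes also went with table position, as described further on. Probes listed for 1 gene did not vary together across pigs, and a gene name here means the name listed for a probe. The left and right spots of the same probe also often differed, as given further on. Why probes of 1 gene did not vary together was not tested. In a muscle sample, fewer fibres of a type and less RNA per fibre cannot be told apart.

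None of the 48 fast troponin probes differed between destructured and normal muscle after adjustment over all 4608 probes, where 0.651% of all probes did (limma with Benjamini-Hochberg adjustment, threshold 0.05). Their adjusted p-values ran from 0.0967 to 0.991. Log2 fold changes, given throughout as destructured minus normal, ran from -0.62 to 0.45, with a median of -0.09 against -0.02 over all probes. Positive values were found for 20 of the 48 probes, where 46.3% of all probes were positive. At an unadjusted p under 0.05 stood 7 of the 48, 14.6%, which is close to the 13% of all probes. Of these 7, 3 were higher in destructured pigs, as were 8.4% of all probes, and 4 were lower, as were 4.64%. With the right part of that pig left out, 40 of the 48 kept the sign of their fold change, and 85.6% of all probes did. In no fast troponin probe were the pigs of the groups fully separated, as they were in 1.28% of all probes. TNNI2 had 3 of its 7 probes at an unadjusted p under 0.05, TNNT3 3 of 12 and TNNC2 1 of 29, and within TNNI2 and TNNT3 these probes pointed in opposite directions.

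The intervals give the range of differences that each probe's values allow, taken by itself and not at the adjusted threshold. The 95% confidence interval of the fold change, unadjusted for the number of probes, lay inside a 2-fold change in either direction for 43 of the 48 probes and inside 1.5-fold for 24. By gene, intervals inside 2-fold were found for 26 of 29 TNNC2, 6 of 7 TNNI2 and 11 of 12 TNNT3 probes. Over all probes 93.2% had an interval inside 2-fold. The lowest bound of any fast troponin probe was -1.17 and the highest 1.12 on the log2 scale.

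**Figure D1:**
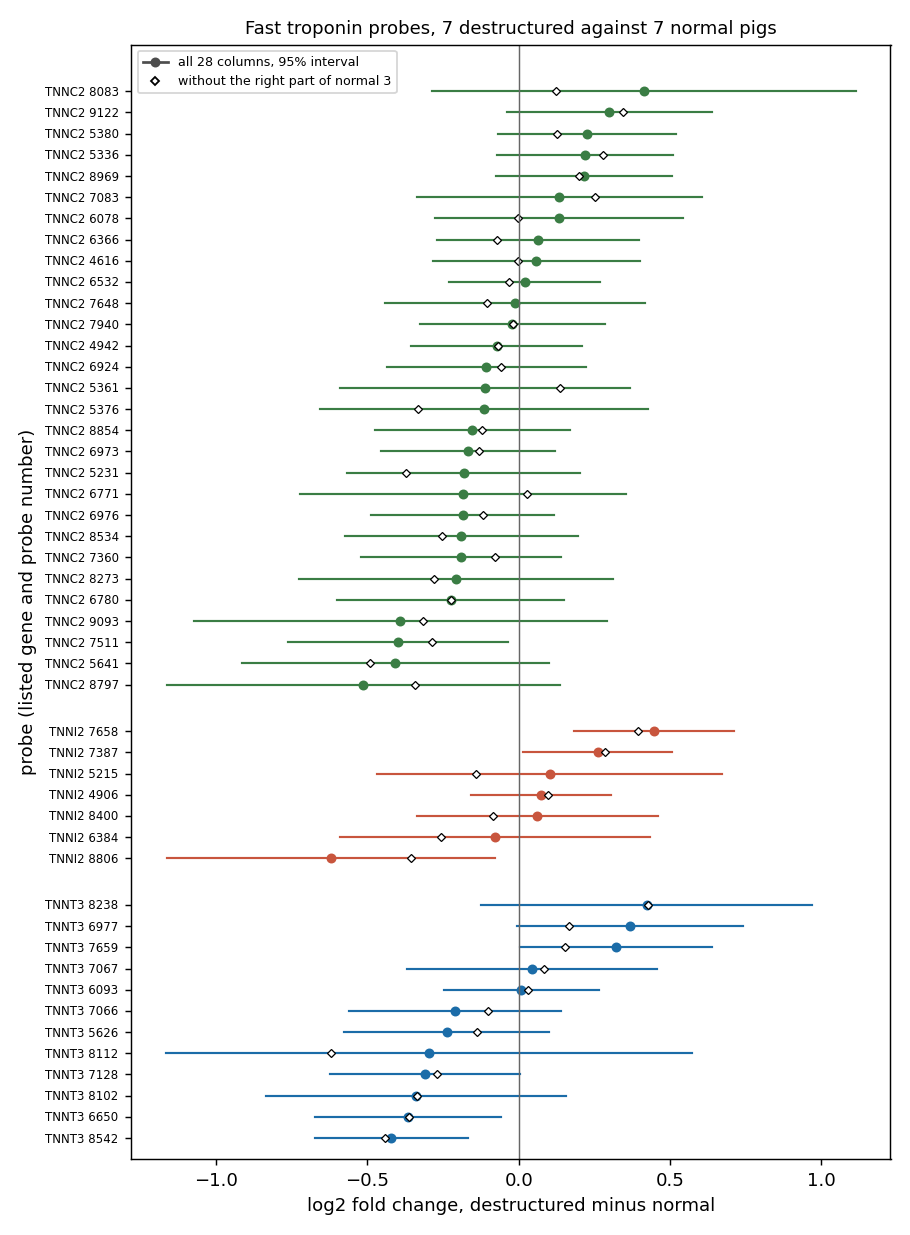
Log2 fold change of each of the 48 fast troponin probes (horizontal axis, destructured minus normal), grouped by listed gene; filled circles with bars are the fit on all 28 columns with its 95% confidence interval, open diamonds the value when the right part of normal replicate 3 is left out. Values run from -0.62 to 0.45 and each gene has probes on both sides of 0.

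TNNC2, the calcium sensor, was the best covered subunit, and its probes lay mostly a little below 0. Of its 29 probes 10 were positive and 19 negative, and their log2 fold changes ran from -0.51 to 0.41 around a median of -0.11. The smallest adjusted p was 0.326. The brightest TNNC2 probe was number 8083. Its log2 level was lowest at 3.49, with a median of 6.02 and a highest value of 6.23 in normal pigs, and it ran from 5.67 through a median of 5.85 to 6.39 in destructured pigs. The low normal value is replicate 3, whose left part read 5.50 and right part 1.49, and apart from it the groups covered nearly the same range. The log2 fold change was 0.41 (SE 0.33, adjusted p = 0.627 by limma), and without that part it was 0.12 (SE 0.17, adjusted p = 0.774).

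The TNNC2 probes with the smallest p pointed opposite ways. Probe 7511 stood at 1.14, 1.55 and 2.45 in normal pigs (lowest, median and highest log2 level) and at 1.04, 1.28 and 1.53 in destructured pigs. The normal pigs reached higher, with replicate 3 at the top and replicate 4 next at 1.97, and the lower parts of the ranges overlapped. Its log2 fold change was -0.40 (SE 0.17, adjusted p = 0.326), which became -0.29 with the right part of replicate 3 left out and -0.11 with position medians removed, neither past the threshold. Probe 9122 stood at 1.79, 2.22 and 2.76 in normal and at 2.07, 2.52 and 2.94 in destructured pigs. The ranges shared most of their length, with 6 of 7 destructured pigs above the normal mean. Its log2 fold change was 0.30 (SE 0.16, adjusted p = 0.444), and 0.35 without the part. Without that part 23 of the 29 TNNC2 probes kept their sign, as did 85.6% of all probes, and none passed. The smallest adjusted p of TNNC2 there was that of probe 5231, which lies outside the rule and is named after its values were seen. It stood at -0.37 (SE 0.11, adjusted p = 0.0863 by limma). Normal pigs ran from 2.83 to 3.22 and destructured pigs from 2.27 to 2.84. Removing position medians as well gave -0.16 (adjusted p = 0.647), and all 28 columns gave -0.18 (SE 0.18, adjusted p = 0.715).

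TNNI2, the inhibitory subunit, had probes pointing in opposite directions. With all 28 columns it held both the fast troponin probe with the smallest p, 7658, and the one with the largest fold change, 8806. With the right part of normal replicate 3 left out, both places went to TNNT3 probes, 8542 and 8112. Of its 7 probes 5 were positive and 2 negative, with a median of 0.07. Probe 7658 had log2 levels of 2.55, 2.80 and 3.30 in normal pigs (lowest, median and highest) and of 3.18, 3.36 and 3.53 in destructured pigs. All 7 destructured pigs lay above the normal mean of 2.89 ± 0.251 (SD, n = 7), and only normal replicate 4, at 3.30, reached into the destructured range. The difference was 1.36-fold (log2 fold change 0.45, SE 0.13), ranked 108 of 4608 probes by p, and did not pass (adjusted p = 0.0967 by limma). An exact two-sided permutation test over the 14 pigs, for this probe alone and unadjusted, gave p = 0.00291. The left and right parts alone gave 0.34 and 0.56, and leaving out the right part of normal replicate 3 gave 0.39 (SE 0.11, adjusted p = 0.0563). The probe passed with array weights (0.46, adjusted p = 0.0258), where 2.80% of all probes were called. With position medians removed it kept its size without passing (0.45, adjusted p = 0.261).

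Probe 8806 of TNNI2 went the other way. Its normal pigs stood at 0.63, 1.24 and 2.88 (lowest, median and highest log2 level) and its destructured pigs at 0.14, 0.88 and 1.07. Normal replicate 3 was again the extreme animal, with 1.03 on its left part and 4.72 on its right, and the other 6 normal pigs, from 0.63 to 1.44, overlapped the destructured range. The log2 fold change was -0.62 (SE 0.26, adjusted p = 0.298), and it was -0.36 (SE 0.15, adjusted p = 0.244) without that part. The brightest TNNI2 probe, 5215, stood at 2.06, 3.95 and 4.38 in normal and at 3.47, 3.73 and 4.05 in destructured pigs. Here the destructured pigs lay inside the range of the normal pigs. Its log2 fold change of 0.10 (SE 0.27) became -0.14 (SE 0.15) when the right part of replicate 3 was left out, whose left part read 3.78 and right part 0.34. The median of the 7 TNNI2 probes likewise moved from 0.07 to -0.08 without that part.

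TNNT3, the tropomyosin-binding subunit, had 5 positive and 7 negative probes of 12, with a median of -0.22. Probe 8542 had its smallest p. It is a dim spot, brighter than only 4.34% of all probes, and signal over background is not given. Log2 levels were -0.41, -0.19 and 0.02 in normal pigs (lowest, median and highest) and -0.94, -0.62 and -0.30 in destructured pigs. All 7 destructured pigs lay below the normal mean of -0.23 ± 0.153 (SD, n = 7), and destructured replicate 2, at -0.30, was the only one inside the normal range. The probe was 1.34-fold lower in destructured muscle (log2 fold change -0.42, SE 0.12) and did not pass (adjusted p = 0.104 by limma). Alone and unadjusted, the exact two-sided permutation test gave p = 0.00233.

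For probe 8542 the call depended on the setting. It passed when the right part of normal replicate 3 was left out (-0.44, SE 0.11, adjusted p = 0.0320), where 2.93% of all probes were called, and with the shared pig number as a random block over all 28 columns (-0.42, adjusted p = 0.0447). With that block 3.125% of all probes were called. It did not pass once position medians were removed (-0.27, adjusted p = 0.520), nor with both changes (-0.29, adjusted p = 0.338). In those settings only 0.109% and 0.369% of all probes were called. The array parts gave -0.47 on the left and -0.37 on the right.

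The other TNNT3 probes chosen by the rule disagreed with each other. Probe 6650 stood at 2.05, 2.37 and 2.85 in normal and at 1.54, 2.03 and 2.32 in destructured pigs. Destructured replicate 3 was the lowest pig of all, and the ranges overlapped between 2.05 and 2.32. Its log2 fold change was -0.37 (SE 0.15, adjusted p = 0.275), -0.36 without the part and -0.36 with position medians removed, which is within 0.01 of the first value. The brightest TNNT3 probe, 7659, stood at 2.77, 3.61 and 3.86 in normal and at 3.66, 3.82 and 4.01 in destructured pigs. All 7 destructured pigs lay above the normal mean, inside or above the upper normal range. The lowest normal pig was replicate 3, with 3.91 on the left part and 1.62 on the right. The log2 fold change of 0.32 (SE 0.15, adjusted p = 0.376) was 0.15 (SE 0.10, adjusted p = 0.508) without that part.

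TNNT3 probe 8112 lies outside the rule and is named after its values were seen. Its normal pigs stood at 0.98, 3.75 and 4.26 (lowest, median and highest log2 level) and its destructured pigs at 1.83, 3.38 and 3.62. The lowest normal value was replicate 3, and the other 6 normal pigs lay in and above the upper destructured range. The log2 fold change was -0.30 (SE 0.41, adjusted p = 0.813), and -0.62 (SE 0.24, adjusted p = 0.193) without that part. The left parts of all pigs alone gave -0.55. The right parts alone, with that of normal replicate 3 kept in, gave -0.04.

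**Figure D2:**
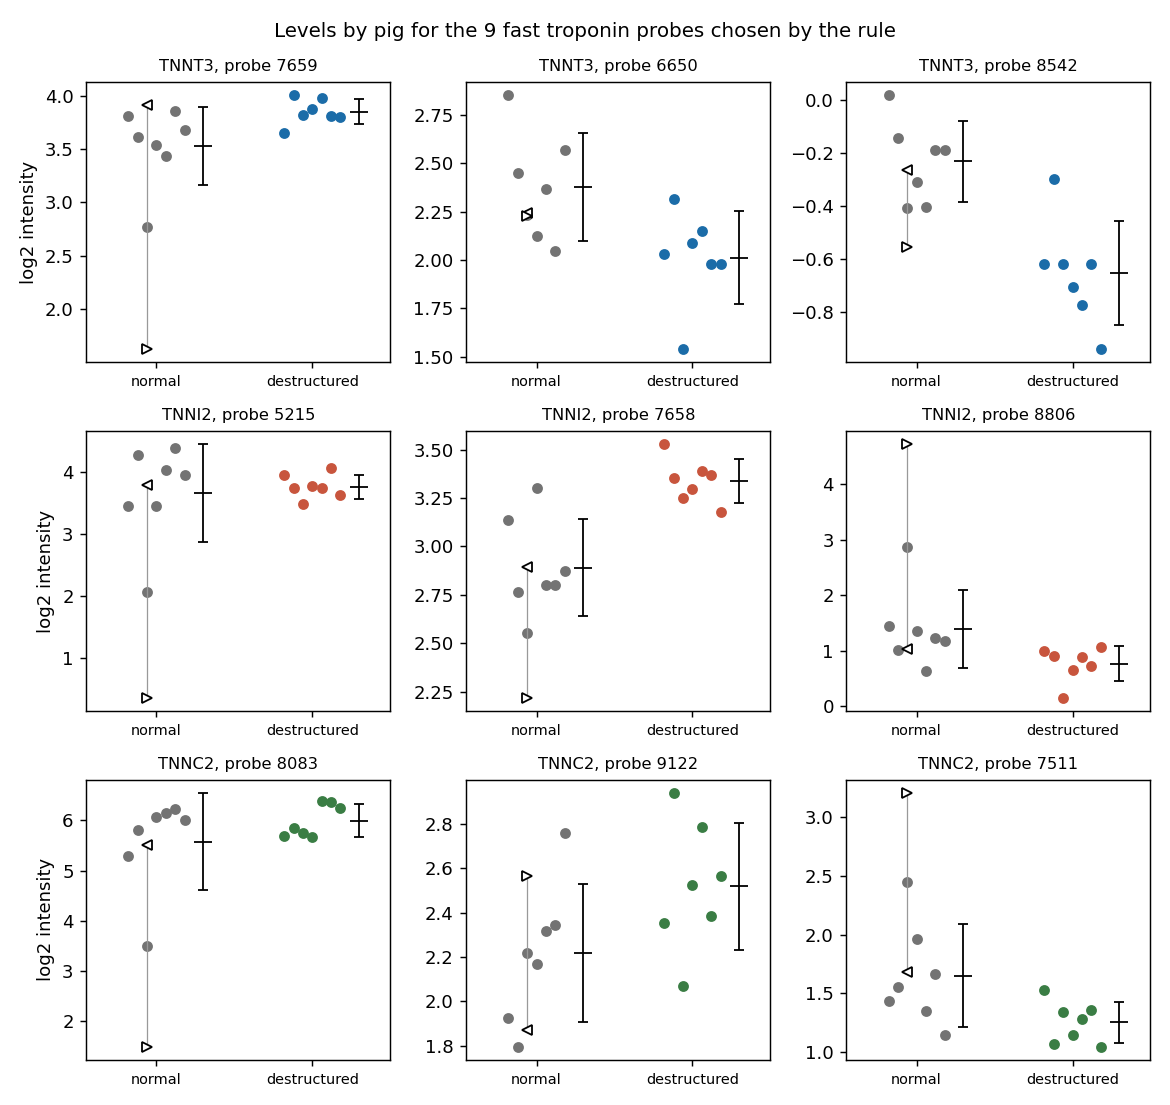
Log2 intensity (vertical axes, each panel with its own range) of the 9 fast troponin probes chosen by the rule, by pig; dots are pigs (mean of both array parts), bars the group mean and SD (n = 7), and open triangles the left and the right part of normal replicate 3. The parts of that pig lie far apart in most panels, as in probe 8083 at 5.50 and 1.49.

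Averaged over all probes of a gene, the groups differed by less than 0.1 on the log2 scale for each subunit. The mean over the 29 TNNC2 probes was 1.75 ± 0.0651 in normal and 1.68 ± 0.0765 in destructured pigs (mean log2 intensity ± SD, n = 7 each), a difference of -0.07, the same size as the pooled SD between pigs of 0.071. Pigs ran from 1.67 to 1.85 in the normal group and from 1.53 to 1.75 in the destructured group, so the groups overlapped between 1.67 and 1.75. The mean over the 7 TNNI2 probes was 2.50 ± 0.178 and 2.53 ± 0.0914, a difference of 0.04 against a pooled SD of 0.142. The 12 TNNT3 probes gave 1.67 ± 0.173 and 1.58 ± 0.0660, a difference of -0.08 against a pooled SD of 0.131. For TNNT3 the normal pigs fell into 4 between 1.78 and 1.80 and 3 at 1.60 or below, while all 7 destructured pigs lay between 1.47 and 1.64. Replicate 3 had the lowest normal value for TNNI2, at 2.12, and for TNNT3, at 1.35. Without its right part the differences were -0.08 for TNNC2, -0.0088 for TNNI2 and -0.12 for TNNT3. The SDs in normal and destructured pigs were then 0.0719 and 0.0758 for TNNC2, 0.0819 and 0.0904 for TNNI2, and 0.114 and 0.0654 for TNNT3. No p is given for these means, since the probes of a gene share their target.

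**Figure D3:**
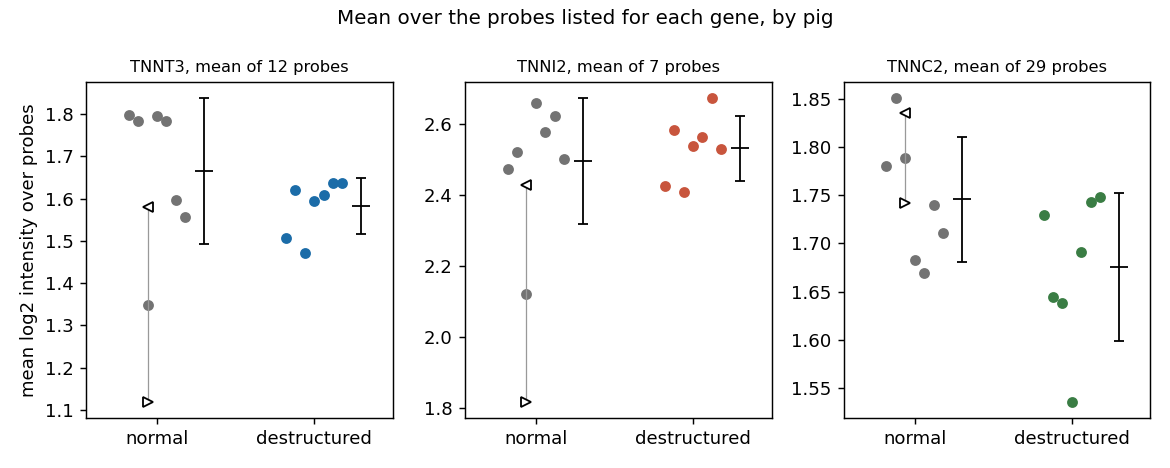
Mean log2 intensity over all probes listed for each fast troponin gene (vertical axes, each with its own range), by pig; dots are pigs, bars the group mean and SD (n = 7), and open triangles the left and right part of normal replicate 3. The groups overlap in all 3 panels, with differences of means of -0.08, 0.04 and -0.07 from left to right.

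The signs of the gene means depended on the setting. Leaving out 1 pig at a time, the TNNC2 mean stayed negative, from -0.084 to -0.047. The TNNI2 mean, 0.04 with all columns, was -0.071 from the left part alone, -0.027 without normal replicate 3 and -0.012 with array weights. The TNNT3 mean was 0.019 without the dimmest 50% of probes, which leaves 6 of its 12 probes. On the deposited scale, with no step that brings the columns to a common level, the median of all probes was itself shifted by 0.21 towards destructured pigs, and 36 of the 48 fast troponin probes were positive. The gene means there were 0.15 for TNNT3, 0.24 for TNNI2 and 0.15 for TNNC2. Relative to the shift of all probes they were -0.065 for TNNT3, 0.028 for TNNI2 and -0.063 for TNNC2. Of the 48 probes 21 lay above the median of all probes. With median centring 21 of the 48 were positive. None of the 48 passed in either.

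The direction of a fast troponin probe went with its place in the table. Rows of the table repeat a layout of 6 rows by 12 columns, and over all probes the mean log2 fold change was 0.11 in columns 2 to 7 and -0.11 in the others. In columns 2 to 7, 14 of 22 fast troponin probes were positive, with a mean of 0.08, and in the others 6 of 26, with a mean of -0.18. By gene, the mean in columns 2 to 7 and in the others was 0.04 and -0.17 for TNNC2, 0.27 and -0.14 for TNNI2 and 0.08 and -0.20 for TNNT3. Each gene was thus higher in the first set of columns than in the second, like the array as a whole. With position medians removed the median of the 48 was -0.05 against -0.0019 over all probes, 42 of 48 kept their sign (77.8% of all probes did), and none passed.

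**Figure D4:**
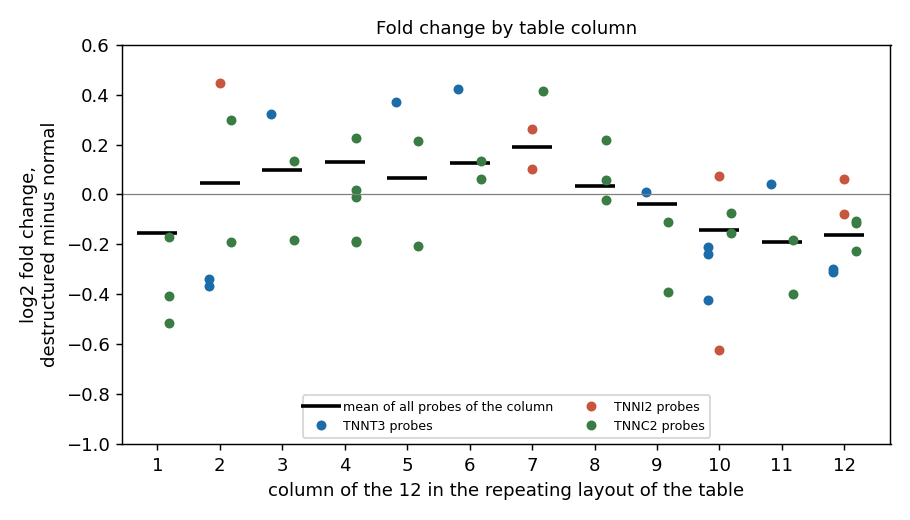
Log2 fold change (vertical axis, destructured minus normal) of the 48 fast troponin probes by the column of the table they stand in (horizontal axis, 1 to 12), with the mean of all probes of each column as a black dash. Of the 22 probes in columns 2 to 7, 14 lie above 0, and of the 26 in the other columns 6 do.

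Probes of the same fast troponin gene did not rise and fall together from pig to pig. After centring within each group, the mean correlation over the 14 pigs was 0.0061 over the 406 pairs of TNNC2 probes, 0.029 over the 21 TNNI2 pairs and 0.0019 over the 66 TNNT3 pairs, and 0.00037 over all pairs of all probes. Single pairs ranged from -0.91 to 0.94 for TNNC2. Between genes the mean was 0.096 for TNNT3 with TNNI2, -0.0038 for TNNT3 with TNNC2 and -0.038 for TNNI2 with TNNC2. With the right part of normal replicate 3 left out the means within a gene were 0.022, -0.0012 and -0.02 for TNNC2, TNNI2 and TNNT3. All pairs share the same 14 arrays, and on the deposited scale, where array brightness is left in, the means within a gene were 0.33, 0.37 and 0.31 against 0.31 over all pairs. With median centring or position medians removed they lay between -0.05 and 0.07.

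**Figure D5:**
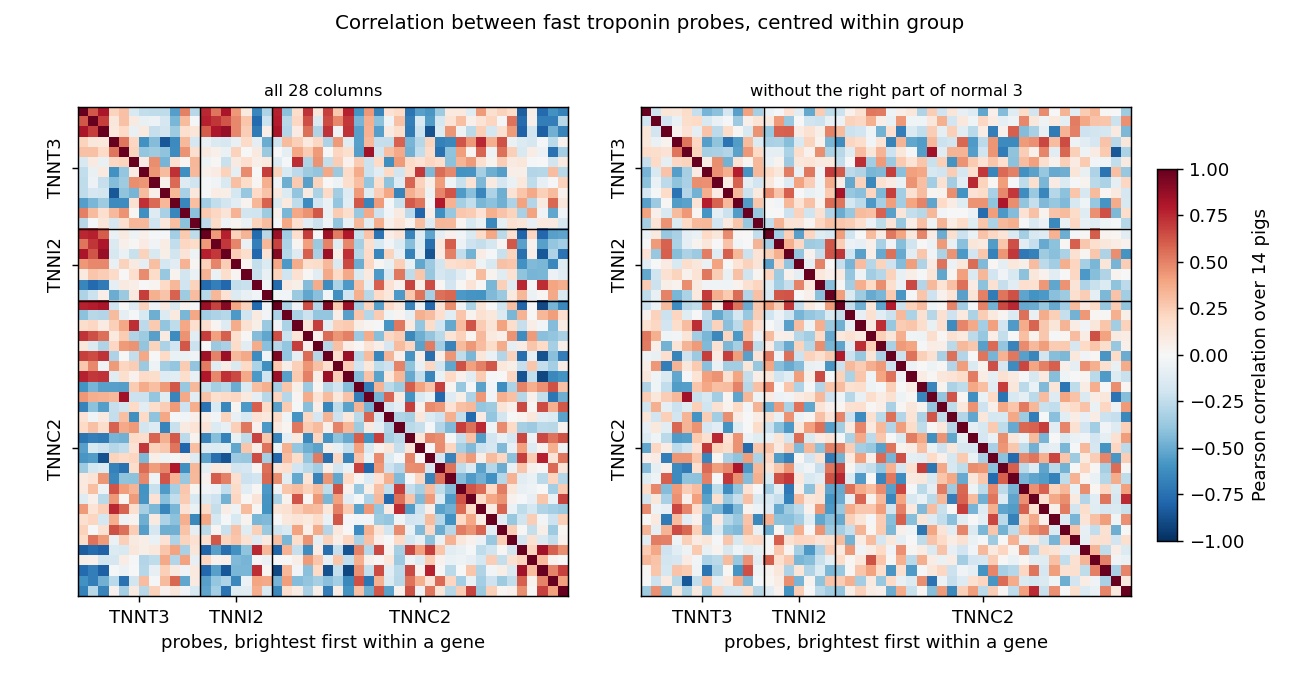
Pearson correlation over 14 pigs (colour scale from -1 to 1) between the 48 fast troponin probes, centred within group and ordered by gene and brightness, from all 28 columns (left) and with the right part of normal replicate 3 left out (right). Squares of 1 gene on the diagonal are not redder than the rest, with means within a gene of 0.0019, 0.029 and 0.0061 on the left for TNNT3, TNNI2 and TNNC2.

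Both parts of an array measure the same RNA, and for single fast troponin probes they often differed. Across pigs, the median correlation of left with right was 0.23 over 14 pigs and 0.30 over the 13 pigs other than normal replicate 3, with values from -0.28 to 0.85. The SD of a single part within a pig, any common offset of left from right included, had a median of 0.401 over the 48 probes. The SD between pigs of a group had a median of 0.323. It is taken over averages of the left and right part, so the SDs are not like for like. Leaving out normal replicate 3, the SD of a single part was 0.296, and no such value is given for the SD between pigs. Fold changes from the left part alone and the right part alone had the same sign for 30 of the 48 probes, where 63.5% of all probes did, with 18 of 29 for TNNC2, 3 of 7 for TNNI2 and 9 of 12 for TNNT3.

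The probes whose pattern over the 14 pigs was most like the brightest probe of each gene changed with 1 array part. The search covered every probe with 1 gene symbol other than that gene. For TNNC2 probe 8083, among 480 probes, these were the probes listed for PSP-I (r = 0.95), SELENOW (0.93) and SMPX (0.93). For TNNI2 probe 5215, among 502, they were SELENOW (0.92), CPT1B (0.92) and POMGNT1 (0.90), and for TNNT3 probe 7659, among 497, TPI1 (0.93), ACTB (0.90) and SMPX (0.87). With the right part of normal replicate 3 left out the leading probes were TNNT3 (0.82), FTL (0.79) and GPI (0.78) for TNNC2 probe 8083. They were GAPDH (0.78), SELENOW (0.69) and RPL23 (0.67) for TNNI2 probe 5215, and GPX4 (0.70), MYLPF (0.70) and TPM1 (0.66) for TNNT3 probe 7659. SELENOW for TNNI2 was the only name in both sets of 3 for the same gene. All these values are descriptions over the same 14 arrays.

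The other genes of the thin filament showed no called probe either, where 0.651% of all probes were called. Of a list of 16, 7 had probes, 18 in all: the slow troponins TNNT1 and TNNI1, the cardiac troponin I gene TNNI3, and the tropomyosin genes TPM1, TPM2, TPM3 and TPM4, whose proteins lie along actin. The other 9 genes of the list, among them the muscle actins ACTA1 and ACTC1, nebulin and the slow troponin C gene TNNC1, had no probe with a name here. Of the 18 probes 3 were positive and 15 negative, where 46.3% of all probes were positive. Their median was -0.14, and 11 of the 18 stood outside columns 2 to 7. With position medians removed the median was -0.11. The smallest adjusted p was 0.225, for the probe of TNNT1 numbered 5964 (-0.42, SE 0.15). That probe passed with array weights (adjusted p = 0.0374), where 2.80% of all probes were called. The other TNNT1 probes stood at 0.11 (4624) and -0.02 (5668). TNNI1 probe 8954 stood at 0.32 (SE 0.16, adjusted p = 0.403), and the other TNNI1 probes at -0.27 (8697) and -0.20 (8852). TPM2 probe 6108 stood at -0.30 (SE 0.14, adjusted p = 0.355). The probes of smallest p listed for TPM1 (-0.13), TPM3 (-0.15), TPM4 (-0.10) and TNNI3 (-0.21) were all negative here and all positive on the deposited scale. On that scale the median of all probes was itself 0.21, and each of these probes lay below it.

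Markers of the tissue were present as far as the array named them. Of 6 muscle fibre markers CKM, DES and MYLPF had probes, 66 in all, and ACTA1, MB and TTN had none. None of the 66 passed, nor any of the 50 probes of fast fibre and 17 of slow fibre markers, where 0.651% of all probes did. These lists overlap: the MYLPF probes are in both the 66 and the 50. The slow fibre list shares its TNNT1 and TNNI1 probes with the thin filament list. At an unadjusted p under 0.05 by limma stood 15.2% of the 66, 10% of the 50 and 17.6% of the 17, against 13% of all probes. Of other cell types, both adipocyte markers with a probe, FABP4 (0.28) and PPARG (0.06), had positive log2 fold changes, and both fibroblast markers, FN1 (-0.34) and MGP (-0.58), negative ones. The summed linear level of the adipocyte markers ran from 7.98 to 14.9 in normal and from 13.3 to 15.5 in destructured pigs, and that of the fibroblast markers from 11.4 to 27.4 and from 7.89 to 16.9. Leaving out the right part of normal replicate 3 moved the median of the adipocyte markers from 0.17 to 0.09 and that of the fibroblast markers from -0.46 to -0.31. With position medians removed only 1 of the 2 adipocyte markers kept its sign. None of these passed, and their part in the fast troponin values was not tested. The endothelial marker PECAM1 stood at -0.03, the immune markers CD74 and CXCL12 did not pass, and blood markers had no probe with a name here.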

How the data were processed

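The authors deposited 1 linear intensity per spot and array part, read from images with BZscan, per the labels. Background correction, and division by the oligonucleotide signal hybridised first, are not given in the sources used here. Column medians ran from 1.69 to 3.67. Intensities were taken to log2, quantile normalized over 28 columns, averaged over the left and right part (replicate numbers 1 and 2 in the labels) and compared between 7 and 7 pigs with limma 3.58.1 in R 4.3.3 (lmFit and eBayes, group as the only term, no filter), with Benjamini-Hochberg adjustment over 4608 probes at 0.05. Probe names are the platform annotation's, which gives 1 symbol to 509 probes, and the identifiers of the 3 genes were found in RefSeq's table. By the rule for named probes, the brightest and the 2 with the smallest p of each gene are described by pig, with the 3 named probes of other genes most correlated with the brightest and, for other thin filament genes, the probe with the smallest p. The members, lists and alternatives were chosen with earlier results of these data known. The fit was tested on simulated data. Alternatives covered scaling, table position, array parts, blocks, dim probes, offset, variance model, weights, threshold, an exact permutation test and each pig left out. Figures were drawn with matplotlib 3.10.9. The number of arrays limits the precision. No sequence is printed.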

Additional observations from a re-analysis of the deposited data

Results flagged for a closer look

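Values of the 7 pigs of a group were searched for a highest or lowest pig far from its neighbour, by Dixon's ratio of that gap to the range of the group. Of 28 groups checked 8 met this. The checks share the same 14 arrays and are not independent, so no rate by chance is set beside the count. In 7 of the 8 the animal was normal replicate 3. The correlation of its array parts was 0.373 over all probes, with the nearest normal pig at 0.869, and 0.208 over the fast troponin probes, with the nearest at 0.813. Its averaged log2 level was the lowest normal value for TNNT3 probe 7659 (2.77, nearest 3.44), TNNI2 probe 5215 (2.06, nearest 3.45) and TNNC2 probe 8083 (3.49, nearest 5.29), and the highest for TNNI2 probe 8806 (2.88, nearest 1.44). It was also the lowest in the mean over the TNNI2 probes (2.12, nearest 2.47). Destructured replicate 3 was the lowest of its group for TNNT3 probe 6650 (1.54, nearest 1.98).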

How the results depend on the processing

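No fast troponin probe was called in 27 of 31 alternatives. In the other 4, 1 probe was called: TNNT3 probe 8542 without the right part of normal replicate 3 and with the pig number as a random block, TNNI2 probe 7658 with array weights and at an adjusted p under 0.10. Leaving out 1 pig at a time gave 0 calls each time. Of the 48 probes 22 kept their sign in every setting that held them (TNNT3 8 of 12, TNNI2 3 of 7, TNNC2 11 of 29). Among other thin filament probes 1 was called with array weights.

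The replicate number of the labels marks the array part. With it as a replicate block and the pig as a random block, 107 of all probes and no fast troponin probe were called (smallest adjusted p 0.0661, for probe 8542), and without the part term 109. Over all probes the count was 30, and 2 with no scaling, 6 with median centring, 5 with position medians removed, 13 from the left part, 1 from the right part, 135 without the right part of normal replicate 3, 17 with position medians removed as well, 144 with the pig number as a random block, 3 without both animals of the shared number, 49 and 56 without the dimmest 25% and 50% of probes, 53 with an offset of 1, 6 with trend and robust variances, 129 with array weights and 111 at a threshold of 0.10. Without 1 pig it ran from 2, without destructured replicate 3, to 84, without normal replicate 3.

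With no scaling the gene means were 0.15 for TNNT3, 0.24 for TNNI2 and 0.15 for TNNC2, where the median of all probes was 0.21. Signs turned as follows. The TNNI2 mean stood at -0.071 from the left part, -0.0088 without the right part of normal replicate 3 and -0.012 with array weights, and ran from -0.027, without normal replicate 3, to 0.063 without 1 pig. The TNNT3 mean stood at 0.019 without the dimmest 50% of probes. With no scaling TPM3 stood at 0.12, TNNI3 at 0.064, TPM1 at 0.060 and TPM4 at 0.059, each below the median of all probes in that setting. With position medians removed POMGNT1 stood at -0.11. From the left part TNNI2 probe 5215 stood at -0.15, POMGNT1 at -0.25 and TPM4 at 0.16, and from the right TPM2 at 0.011 and TNNI3 at 0.14. Without the right part of normal replicate 3 probe 5215 stood at -0.14, POMGNT1 at -0.18 and TPM4 at 0.14, and with position medians removed as well probe 5215 at -0.23, TNNC2 probe 8083 at -0.023, ACTB at -0.019 and POMGNT1 at -0.35. With array weights probe 5215 stood at -0.21, SELENOW at -0.051, CPT1B at -0.12, POMGNT1 at -0.13 and TPM4 at 0.14. Leaving out 1 pig at a time, probe 5215 ran from -0.16 to 0.23, SELENOW from -0.056 to 0.37, CPT1B from -0.070 to 0.41, POMGNT1 from -0.18 to 0.13 and TPM4 from -0.19 to 0.16, each with its sign turned without normal replicate 3. None of these probes passed, and the cause was not tested. Signal over background is not given, so what it limits in dim spots such as probe 8542 could not be told.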
